A study of Mus musculus with 10 samples.

Results

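Lung was set directly against salivary gland in a survey of alternative splicing across mouse tissues. The comparison used 2 of the 10 samples in the series, chosen by their labelled tissue, and all 3126 splicing events on the array. Each sample was a single pool of total RNA from mice of the CD1 strain, and the labels give no age, sex, number of animals or kind of salivary gland. Every difference is lung minus salivary. The other 8 tissues (brain, heart, intestine, kidney, liver, muscle, spleen and testis) served to tell which member of the pair departed from the rest. With 1 sample per tissue, no value has a replicate error and no difference was tested, so the counts describe these 2 arrays.

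Alternative splicing lets one gene give several messenger RNAs, most often by keeping or leaving out an internal exon. When the exon is kept, 2 new junctions join it to its neighbours, and when it is left out a single junction joins the neighbours to each other. Lung and salivary gland are both branched epithelial organs set in connective tissue. Lung is built for gas exchange and is rich in blood vessels, whereas salivary gland is built around secretory acini and ducts.

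Every event carried 7 probes. C1 and C2 lay in the exons on either side of the alternative exon, and A lay in the alternative exon itself. The junctions C1:A and A:C2 report inclusion, and C1:C2 reports skipping. The seventh probe is marked INT, and its target is not given in the sources used here. The table names events by number only and pairs none with a gene, so no gene can be named, no sequence can be shown and the tissue labels could not be checked against marker genes. All values are in the deposited units, which stop at 0 and whose scale and base are not stated. A difference is therefore given in units and not as a fold.

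The lung and salivary arrays were broadly alike. The median probe read 2.14 in lung and 2.04 in salivary. The INT probes had medians of 1.07 and 1.16. Values of exactly 0 made up 1.92% of probes in lung and 3.33% in salivary. In 6 events all 7 probes read 0 in salivary, INT included, whereas no event did so in lung. The difference between the arrays also leaned with brightness. Probes were ranked by their median in the other 8 tissues, and differences were taken after each array's own median had been subtracted. This subtraction lowers every difference by the gap between 2.14 and 2.04. The 2189 dimmest had a median difference of -0.10 units, which is the size of that gap, and the 2189 brightest had 0.06. Removing this trend with a smooth curve left all 4 counts given below within 1.5 times. By level, lung and salivary had the smallest robust SD of differences among the 45 tissue pairs, 0.415 units, against 0.521 for kidney and liver and 0.553 for heart and muscle. The robust SD, the median absolute deviation scaled to match an SD, is little moved by a few large differences. For splicing the pair again had the smallest robust SD, 0.324 units over all events, against 0.416 for kidney and liver and 0.510 for heart and muscle. Large level differences were not the fewest of all pairs, however. At the threshold used below, 98 events differed in level between lung and salivary, against 89 between heart and muscle.

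Transcript level was the first measure compared. The probes C1 and C2 of an event were averaged to give its level, after the median of an array had been taken from all its values. A level was called different when lung and salivary lay at least 1.66 units apart, which is 4 robust SDs of the differences over all events. This held for 98 events, 3.13% of those measured. By this rule 51 events, 1.63%, were higher in lung, and 47, or 1.5%, were higher in salivary. Without centring, the split was 68 higher in lung and 39 higher in salivary. In pooled tissue RNA, fewer cells of a type and less RNA per cell cannot be told apart. The differences had a median of 2.24 units among events higher in lung and of -2.04 among events higher in salivary. Their extremes were 5.25, from an event with salivary probes at 0, and -4.00.

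After centring, the flanking probes pointed the same way in nearly all of these events. The rule itself favours this, because it selects events by the mean of C1 and C2. Both C1 and C2 were higher in lung in 51 of the 51 events of the first group, and each passed the threshold in 38. Both were lower in lung in 44 of the 47 events of the other group, and each passed in 28. In Ben299, Ben2382 and Ben2150, counted among the 44, the deposited value of 1 flank was slightly higher in lung. Its sign there came from centring. Some calls rested on 1 flank, as in Ben144, where C1 read 3.23 in lung and 7.19 in salivary, and C2 read 3.25 and 2.98. Across all 3126 events the differences of C1 and C2 correlated at r = 0.71, a description over probes that share 2 arrays. All 6 exon and junction probes pointed the same way in 37 events of each group. The A probe differed less than its neighbours by the median. In events higher in salivary its median difference was -1.02 units, where C1 and C2 had -2.02 and -1.92. In events higher in lung its median also lay closer to 0 than those of C1 and C2, which were 2.14 and 2.21. The junctions, which like A played no part in the call, also had smaller medians than the flanks. For C1:A, A:C2 and C1:C2 these were 1.28, 1.62 and 1.87 in events higher in lung, and -1.48, -1.33 and -1.52 in the other group. Selection by C1 and C2 favours larger differences in them than in other probes. Low readings touch many of these sizes. In 22 of the 51 events at least 1 flank in salivary read below the INT median of its array, and in 17 of the 47 events the same held in lung. The share over all events is not given beside these counts.

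**Figure D1:**
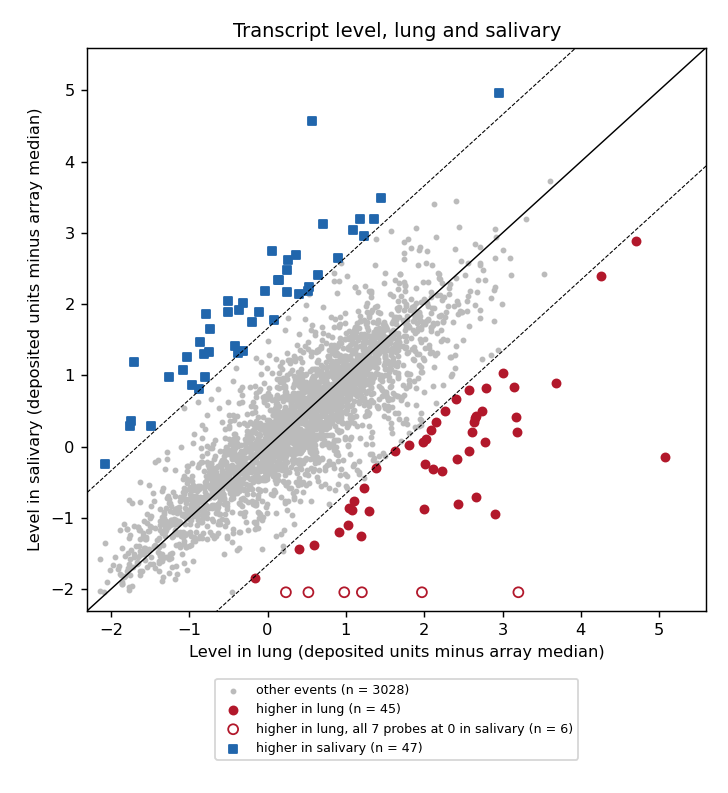
Each point is 1 event, with its level (mean of C1 and C2, deposited units minus the array median) in lung on the horizontal axis and in salivary on the vertical axis. Dashed lines mark the threshold of 1.66 units on either side of equality. The 51 events higher in lung lie at the lower right, the 6 with all 7 probes at 0 in salivary lie along the bottom edge as open circles, and the 47 events higher in salivary lie at the upper left.

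The 6 events with all 7 probes at 0 in salivary were all counted as higher in lung. In lung their levels as deposited ran from 2.37 to 5.34 units. In the other 8 tissues the INT probes of these events never read below 1.03. In 5 of the 6, lung lay closer than salivary to the median of the other tissues. Without these events, 45 were higher in lung, against 47 higher in salivary. What the zeros stand for was not tested.

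By value, the 2 events with the largest level differences in favour of lung were Ben2508 and Ben992. Ben2508 was one of the 6 with zeros throughout in salivary, so its difference of 5.25 units is not an exact size and its rank above Ben992 is not settled. Its C1 probe read 5.72 in lung and 0 in salivary, and in the other tissues it ran from 0 to 1.89 with a median of 0.273. Its C2 probe read 4.96 in lung and 0 in salivary, and elsewhere from 2.30 to 3.09. Lung was thus above each of the other 8 tissues on both flanks. Relative to the other 8 tissues, whose median served as the baseline, the centred level differed by 3.82 units in lung and by -1.42 in salivary. The skipping junction of Ben2508 was also brightest in lung, at 5.70, against 0 in salivary and at most 2.91 elsewhere.

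Ben992 was far brighter in lung than in salivary or any of the other 8 tissues on its exon and inclusion probes. Its centred level was 5.07 in lung and -0.15 in salivary, and ran from -0.90 to -0.08 in the others. Its C1 probe read 7.41 in lung and 2.27 in salivary, and from 1.97 to 3.10 in the others. Its A probe read 7.09 in lung and 1.77 in salivary, with 1.20 to 2.46 elsewhere. Its C2 probe read 7.01 in lung and 1.51 in salivary, with 0.277 to 1.32 elsewhere. The readings of salivary and the other tissues overlapped for C1 and A, and lung stood apart on all 3 exon probes. Both inclusion junctions read 7.11 in lung, against 3.76 and 2.45 in salivary, while C1:C2 read 3.46 in lung and 2.29 in salivary. The level difference was 5.22 units.

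The 2 events with the largest differences in favour of salivary were Ben3434 and Ben2881. In Ben3434 the 6 exon and junction probes read from 1.30 to 2.90 in lung and from 5.72 to 6.89 in salivary. Intestine was the only other tissue near salivary, with 4.54 to 6.31 on these probes, and in kidney all 7 probes read 0. Liver read 1.83 to 3.23, close to lung. The level difference was -4.00 units, and inclusion was alike, with a junction index of 0.744 in lung and 0.784 in salivary. The index differed by -0.04 units, far less than the threshold for exons given below.

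Ben2881 showed the other pattern, in which the flanks and the skipping junction differed while the probes of the alternative exon read low in both tissues. C1 read 0.337 in lung and 3.09 in salivary, and C2 read 0.529 and 3.39. The skipping junction read 0.269 in lung and 2.50 in salivary. The A probe read 0 in lung and 0.0627 in salivary. C1:A read 0.661 in lung and 0.808 in salivary, and A:C2 read 0.289 in lung and 0.216 in salivary. Intestine, kidney and liver were higher still than salivary on C1, with 6.66, 4.28 and 4.20. The level difference was -2.90 units. The exon of Ben2881 entered no splicing count, because its flanks in lung lay in the lowest 25% of that array.

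Set against the other 8 tissues, a level call in either direction mostly marked a tissue that was high and not a partner that was low. Among the 51 events higher in lung, lung lay farther than salivary from the median of the other 8 in 41. Among the 47 higher in salivary, salivary lay farther in 45. Together the tissue with the higher level was the farther one in 86 of 98 events, or 87.8%. Among the 3028 events without a call it was so in 47.3%. Values stop at 0, so a tissue can stand farther above the rest than below it. Lung alone lay outside the range of the other 8 in 25 of the 51 events and salivary alone in 7, and without the 6 events with zeros these numbers were 25 and 2. In the other group salivary alone lay outside in 28 of the 47 events and lung alone in 3. Neither lung nor salivary lay outside the range in 17 events of the first group and 11 of the other, and both did in 2 and 5.

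**Figure D2:**
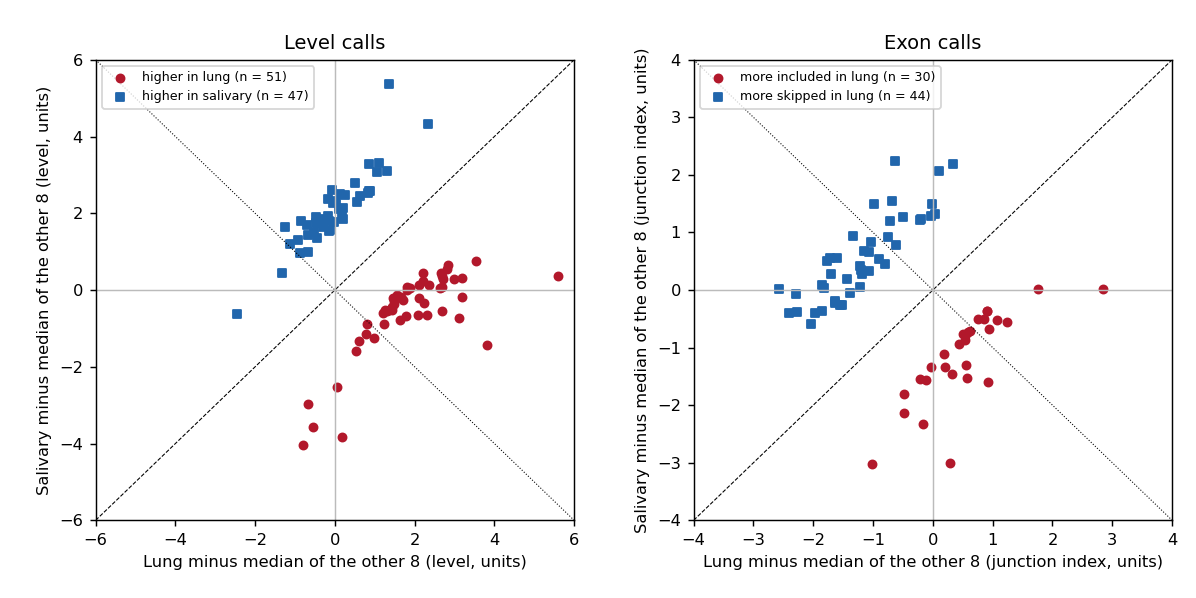
Each point is 1 called event, with the distance of lung (horizontal) and of salivary (vertical) from the median of the other 8 tissues, in units of level (left panel) and of the junction index (right panel). On the left, points higher in lung mostly spread to the right and points higher in salivary upward. Salivary lay farther in 10 of the 51 events higher in lung, which spread downward. Lung lay farther in 2 of the 47 events higher in salivary, which spread to the left. On the right most exons more skipped in lung spread to the left, and most of those more included in lung spread downward. Salivary lay farther in 14 of the 44 skipped exons, which spread upward. Lung lay farther in 9 of the 30 included exons, which spread to the right. On the diagonals both tissues lie equally far from the others.

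The other 8 tissues did not line up with the pair in 1 way. For each called event, a tissue was placed on the lung side when it lay nearer the lung value than the salivary value. Over the 98 level calls, heart lay on the lung side in 64.3% and spleen in 60.2%, whereas brain did so in 43.9%. Among events without a call these shares were 55.8%, 54.7% and 55.2%. For the 51 events higher in lung, heart lay on the lung side in 22, or 43.1%, and spleen in 16, or 31.4%. Both shares were below those of events that leaned the same way without a call, 60.2% and 51.6%. The same held for every other tissue, with brain at 21.6% against 59.8% and testis at 19.6% against 52.0%. For the 47 events higher in salivary, muscle and spleen each lay on the lung side in 43, or 91.5%, against 52.4% and 58.1% without a call. Every other tissue also had a higher share than without a call, down to brain at 68.1% against 50.2%. Within each direction the shift was thus not particular to the tissues named.

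Exon inclusion was compared next, which is the measurement the array was designed for. For the junction index the inclusion junctions C1:A and A:C2 were averaged and the value of C1:C2 was subtracted. A higher index was read as more inclusion. The centring of the arrays cancels in this index. The body index, A minus the level, gives a second reading from different probes. An exon was testable when C1 and C2 each exceeded the lowest 25% of values on both arrays, which held for 2347 events. It was called when lung and salivary differed by at least 1.25 units in the junction index, again 4 robust SDs, and when the body index pointed the same way. The junction index alone was past the threshold and higher in lung in 37 exons, 1.58%, and lower in lung in 46, or 1.96%. With the body index added 74 exons, 3.15%, were called. Of these, 30 exons, 1.28% of those testable, were more included in lung, and 44, or 1.87%, were more skipped in lung. The index differences had medians of 1.49 and -1.66 units, and extremes of 3.30 and -2.88.

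The second reading followed the first more closely as differences grew. The body index had the sign of the junction index in 53.7% of the 1489 exons whose index differed by under 1 robust SD. The share was 65.8% from 1 to 2 robust SDs, 71.4% from 2 to 3 and 76.7% from 3 to 4. Past the threshold it was 89.2%, or 74 of 83 exons. Across the 2347 testable exons both indices correlated at r = 0.44, as a description of probes that share 2 arrays. By its own threshold of 1.16 units the body index was higher in lung in 34 exons, 1.45%, and lower in 65, or 2.77%. These included 8 of the 30 exons called more included, and 21 of the 44 called more skipped. Both indices can also move with level, as described below. Of the 34 exons, 13 lay on events called higher in salivary, and of the 65, 11 lay on events called higher in lung. How much of the agreement between the indices comes from level was not tested.

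**Figure D3:**
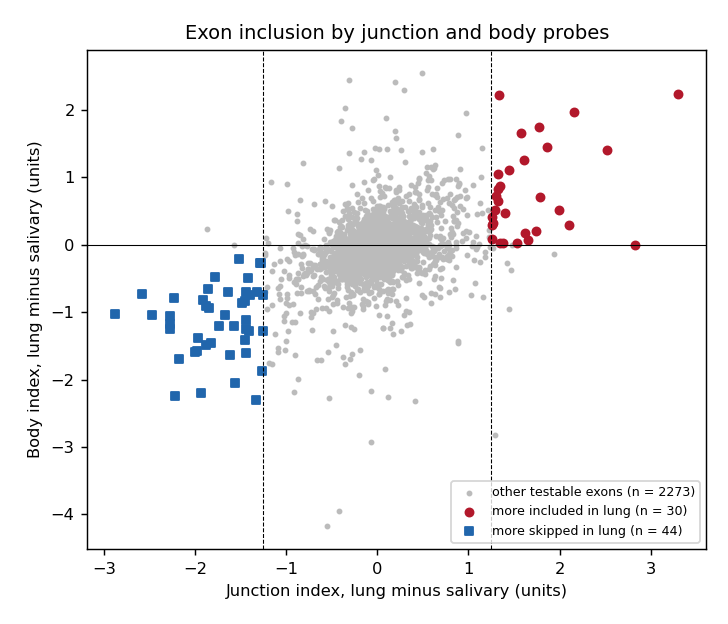
Each point is 1 of the 2347 testable exons, with the lung minus salivary difference of the junction index on the horizontal axis and of the body index on the vertical axis, both in units. Dashed lines mark the threshold of 1.25 units for the junction index. The 30 exons more included in lung lie at the upper right and the 44 more skipped in lung at the lower left.

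The skipping junction carried most of these calls. In the 44 exons more skipped in lung, C1:C2 was higher in lung by a median of 1.38 units, while C1:A and A:C2 differed by -0.23 and -0.29 and A by -0.25. In 23 of the 44 both inclusion junctions were lower in lung and C1:C2 higher, the pattern of a switch from one form to the other. In 11 the mean of the inclusion junctions was higher in lung, and the call rested on a larger excess of C1:C2. In the 30 exons more included in lung, C1:C2 was lower in lung by a median of -1.10 units, and C1:A, A:C2 and A were higher by 0.14, 0.52 and 0.31. The full switch, with both inclusion junctions higher in lung and C1:C2 lower, was seen in 11 of the 30. The part of the index from C1:C2 exceeded that from the inclusion junctions in 35 of the 44 and in 18 of the 30. The index averages both inclusion junctions but takes C1:C2 alone, which favours C1:C2 in large differences. The same counts are not given for exons without a call. Junction readings were often low. In 27 of the 44 exons a junction in lung read below the INT median of the array, and in 10 of the 30 a junction in salivary did. The share over all testable exons is not given, so these counts do not show that called exons were unusually dim.

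Exons called more skipped in lung tended to lie on transcripts that read higher there. Their C1 and C2 probes were higher in lung by a median of 0.94 units each, against differences of -0.09 and 0.04 in the exons more included in lung. Of the 44 skipped exons, 10 lay on events whose level was itself called higher in lung, which is 22.7% of those exons and 32.3% of the 31 such events with a testable exon. Over all testable exons that level call was made in 1.32%. None of the 44 lay on an event higher in salivary. The junction index shares no probe with the level, whereas the body index holds C1 and C2. The junction index is still not independent of level. Where the inclusion probes read low in both tissues, a higher level can raise C1:C2 and lower both indices. An exon skipped in both tissues can then be called more skipped in lung. In 1 event called for level and exon, A read 0.0965 in lung and 0 in salivary, and A:C2 read 0 in both. Its C1:A read 1.47 in lung and 1.57 in salivary, and its C1:C2 read 5.17 and 3.003. How much of the link comes from this was not tested. Of the 30 exons more included in lung, 5 lay on events higher in salivary, or 16.7%, against 1.19% over all testable exons, and 1 on an event higher in lung. In the 10 events with both calls C1:C2 was higher in lung by a median of 1.99 units and A by 0.54, and C1:A and A:C2 differed by -0.08 and 0.25. In most cases the level was not called, in 34 of the 44 and in 24 of the 30.

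The 2 exons with the largest index differences toward inclusion in lung were those of Ben4012 and Ben992, and neither was a plain switch. In Ben4012 the skipping junction read 0.873 in lung and 4.74 in salivary. No inclusion probe was higher in lung. C1:A read 0 in lung and 0.201 in salivary, and A read 2.52 and 2.73. A:C2 read 1.12 in lung and 2.04 in salivary, a centred difference of -1.02 units that runs against more inclusion in lung. The junction index was -0.31 in lung and -3.61 in salivary, and ran from -2.22 to -0.16 in the other tissues. Salivary alone lay outside that range, and brain and testis came nearest to it, with C1:C2 at 3.43 and 3.46. Ben4012 was also a level call, with a level difference of -2.54 units.

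Ben992, the event that was bright in lung, had a junction index of 3.65 in lung and 0.816 in salivary, with 0.471 to 1.46 elsewhere. Lung alone lay outside the range of the other tissues. The A probe was higher in lung by 5.22 units and the level also by 5.22, so the body index differed by only 0.0004 and met the sign rule by the narrowest margin. In salivary C1:C2 read 2.29 and A:C2 2.45, both below the INT probe of the same event at 3.12, whereas C1:A at 3.76 was above it.

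The exon of Ben319 had the largest difference toward skipping in lung, and its level was alike in both tissues. C1 read 4.07 in lung and 4.01 in salivary, and C2 read 3.95 and 3.92. C1:A read 1.61 in lung and 3.22 in salivary, and A:C2 read 2.95 and 3.76. The skipping junction ran the other way, with 3.32 in lung and 1.65 in salivary. A read 2.19 in lung and 3.16 in salivary. All 4 probes of the exon and its junctions pointed to more skipping in lung, while INT read 0.799 and 0.904. The junction index was -1.04 in lung and 1.84 in salivary. Kidney, liver and intestine lay with salivary, at 1.82, 1.66 and 0.732. Brain, muscle, heart, testis and spleen lay with lung, at -0.18, -0.62, -0.68, -1.23 and -2.95. This exon thus divided the 10 tissues, with lung inside the range of the others and salivary just above its upper end.

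The exon of Ben4064 came next, with an index difference of -2.58 units. C1:C2 read 2.95 in lung and 0.665 in salivary, and from 0.344 to 1.49 elsewhere. C1:A read 0.293 in lung and 0.558 in salivary, A:C2 read 0.998 and 1.32, and A read 1.31 and 1.36. Lung alone lay outside the range of the other tissues, with an index of -2.31 against 0.276 in salivary and 0.0960 to 1.12 elsewhere. The INT probe of this event read 2.64 in lung and 2.69 in salivary. In lung its flanks read 2.70 and 2.74, close to INT, and in salivary 1.94 and 2.13, below it.

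**Figure D4:**
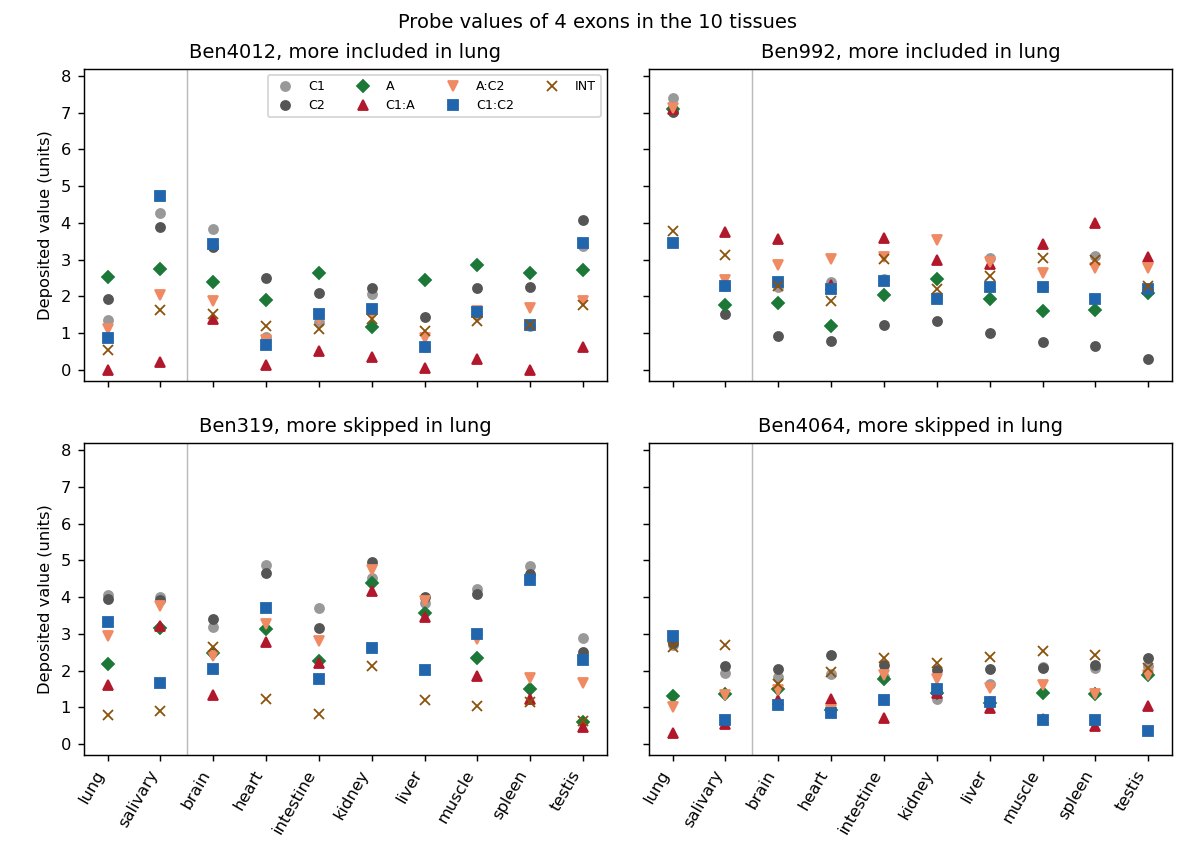
Deposited values of all 7 probes of the 4 exons, with lung and salivary left of the grey line and the other 8 tissues right of it. In Ben319 the skipping junction (squares) lies above both inclusion junctions (triangles) in lung and below them in salivary. In Ben4012 and Ben4064 C1:C2 is the probe that differs most between lung and salivary, and in Ben992 lung stands above the other tissues on the exon and inclusion probes.

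The called exons were also set against the other 8 tissues. Among the exons more skipped in lung, lung lay farther from the median of the other 8 in 30 of 44, against 592 of 1090 testable exons that leaned the same way without a call. Among those more included in lung, salivary lay farther in 21 of 30, against 739 of 1183 without a call. Over both directions the tissue with less inclusion was the farther one in 51 of 74 exons, or 68.9%, against 58.6% of the 2273 testable exons without a call. Lung alone lay outside the range of the other tissues in 18 of the 44 and salivary alone in 10. For the 30 exons more included in lung, salivary alone lay outside in 12 and lung alone in 4.

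The other tissues also divided between lung and salivary by exon inclusion. Over the 74 called exons, heart lay on the lung side in 66.2% and muscle in 58.1%, whereas intestine did so in 29.7%, testis in 39.2% and kidney in 40.5%. Among testable exons without a call, the shares for heart, muscle and intestine were 55.7%, 49.6% and 53.0%. In 25 of the 74 exons heart and muscle both lay with lung while intestine lay with salivary, and in 6 the split was the reverse. Under quantile normalization these were 17 and 7 of 71 exons. Heart then lay on the lung side in 62.0%, muscle and spleen each in 53.5% and intestine in 36.6%, so muscle no longer stood above spleen. Heart, muscle and intestine are the tissues with the highest and lowest shares before quantile normalization. No count of this split is given for exons without a call, so it has no background. Among the 58 called exons on transcripts without a level call, heart lay on the lung side in 69.0% and intestine in 34.5%. For heart and muscle the lean lay in 1 direction of the calls. Among exons more included in lung each lay on the lung side in 24 of 30, or 80.0%, against 54.3% for heart and 49.7% for muscle without a call. Among exons more skipped in lung heart did so in 56.8% and muscle in 43.2%, against 57.2% and 49.4% without a call. Intestine lay on the lung side in 11 of the 30 included and 11 of the 44 skipped exons, against 54.1% and 51.8% without a call.

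**Figure D5:**
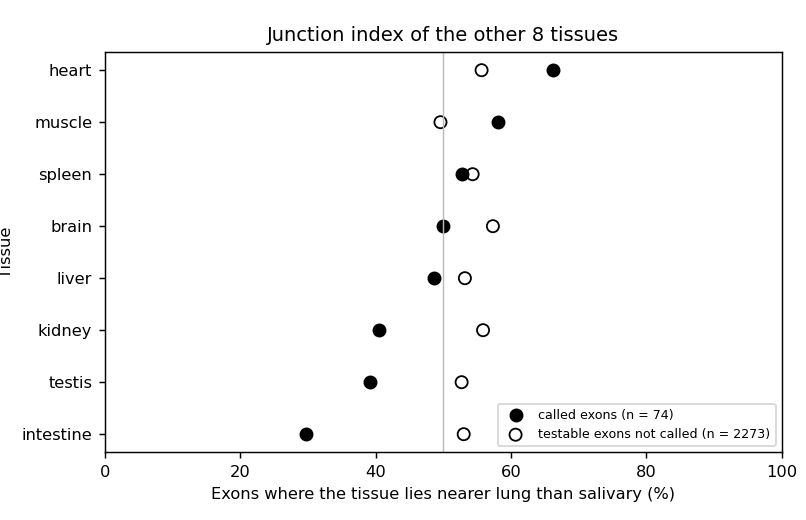
For each of the other 8 tissues, the share of exons in which its junction index lay nearer lung than salivary, in percent, for the 74 called exons (filled) and the 2273 testable exons without a call (open). Heart is highest among the called exons at 66.2% and intestine lowest at 29.7%, while the open circles lie between 49.6% and 57.3%.

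Few calls had bright junction signal on both sides of the index. A stricter filter asked that C1:C2, and also the average of both inclusion junctions, exceed the 95th percentile of INT probes in lung or in salivary. Under it 186 exons were testable. Of these, 7 were more included in lung and 3 more skipped, so the larger group was no longer the skipped one. In the 7, A was higher in lung by a median of 1.98 units and A:C2 by 1.86, while C1:C2 differed by 0.04. These medians do not hold for each exon. In Ben3942 and Ben2150 C1:C2 read 3.64 and 4.02 in lung, against 7.275 and 7.30 in salivary. Their C1:A probes were also lower in lung, at 3.63 and 3.74 against 7.37 and 7.16, which runs against more inclusion there. In the 3, which include Ben319 and in which lung lay farther from the other 8 in 1 and salivary in 2, C1:C2 was higher in lung by a median of 1.26 and both inclusion junctions were lower, by medians of -0.66 and -0.90. Over these 10 exons heart and muscle each lay on the lung side in 7, liver and spleen each in 6, and brain in 5. Kidney and testis each did so in 4 and intestine in 2. The shares over all 186 exons are not given, so these counts have no background.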

How the data were processed

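The deposited table holds 1 score per probe for 21882 probes in 10 samples. The values are treated as a score because the file header and the labels state neither scale, base, background correction nor normalization. Scanner, dyes and probe sequences are likewise not given in the sources used here. Samples were grouped by tissue from their titles. No column was left unused.

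The median of an array was subtracted from all its values. Level, junction index and body index were computed per event, and lung minus salivary differences were called at 4 robust SDs of the differences, with no test and no p-value because each tissue has 1 sample. The number of arrays limits the precision. Named events are the 2 highest and 2 lowest by level and the 2 called exons at each end by junction index, the most allowed where no gene names are given. The planned gene and marker lists could not be applied. The comparison and its rules were chosen with earlier results of these data known. Alternatives were other normalizations, thresholds, filters and indices. Python 3.11.15, numpy 2.4.6, pandas 2.3.3, statsmodels 0.14.6 and matplotlib 3.10.9 were used.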

Additional observations from a re-analysis of the deposited data

How the results depend on the processing

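No paired analysis was possible because lung and salivary have 1 sample each. Quantile normalization, columns as deposited and the smooth-curve correction left the 4 counts of level and exon calls within 1.5 times. With quantile normalization 48 of the 51 events higher in lung, 40 of the 47 higher in salivary, 25 of the 30 included and 40 of the 44 skipped exons were called again. Thresholds change counts by construction. At 3 robust SDs, 113 events were higher in lung and 72 in salivary, and 51 exons were more included and 79 more skipped in lung. At 6 robust SDs the counts were 17, 5, 6 and 16, and with a threshold from all 45 tissue pairs 9, 1, 3 and 8. With C1 and C2 each past the threshold, 28 events were higher in salivary. With bright junctions required, 7 exons were more included and 3 more skipped. The counts of which tissue lay farther stayed within 1.5 times when any of the other 8 tissues was left out. Leaving out events or exons with values at 0 was chosen after seeing the data, and gave 45 events higher in lung, 46 higher in salivary, 27 included and 35 skipped exons. Quantile normalization moved the level difference of Ben2508 to 5.85 and the index differences of Ben4012 and Ben319 to 3.70 and -3.19.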

Other observations

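The INT probes, which enter no index, leaned to salivary. A single probe was counted as different at 1.57 units, 4 robust SDs of all probe differences. Of the 3126 INT probes, 6 were higher in lung and 29 higher in salivary, whereas 407 probes of all kinds were higher in lung and 320 higher in salivary. Of those 6, 5 belonged to the events with all 7 probes at 0 in salivary, which leaves 1. Of the other kinds, C1:A also had fewer values higher in lung than in salivary, 54 against 57, and 49 against 57 without the events wholly at 0 in salivary. Dim probes, pooled over all kinds with INT included, leaned the same way. Among the 2189 dimmest by the median of the other 8 tissues, 19 were higher in lung and 27 in salivary, and in the next 2 sets of 2188 these were 29 and 44, and 42 and 53. The median INT difference was -0.15 units, lower than that of any other probe kind, which ran from -0.07 for C1:A to 0.04 for C2. All these differences are of centred values. Centring lowers each by the gap between the array medians, 2.14 in lung and 2.04 in salivary. The leans of INT and of dim probes to salivary are therefore partly set by centring, and their counts without it are not given here. The C2 probes had the most lung-high values of any kind, with 94 higher in lung and 50 higher in salivary.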
